A study of Mus musculus with 9 samples.

Results

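Gene expression in quadriceps was compared between Gaa knockout mice given a vector for a secreted form of acid alpha-glucosidase (KO_secGAA, 3 libraries) and knockout mice given PBS (KO_PBS, 3 libraries). All genes of the deposited table entered the comparison, and 13089 of its 13116 genes passed the filter on low values. The study holds 9 libraries in all, and the other 3 came from wild-type mice given PBS (WT_PBS), whose values are set beside the others as a reference level. All groups were male, received their injection into a tail vein at 9 months and gave muscle after a further 9 months, aged 18 months. KO_secGAA mice received the vector AAV8-sp7-delta8-hGAAco, and KO_PBS mice have the same GAA KO genotype. The series title places the expression of the secreted enzyme in the liver. The sources used here name neither the promoter, the vector dose nor the knockout allele. No group received a vector without the enzyme, so an effect of the enzyme and an effect of the vector cannot be told apart. The labels list separate samples but do not say that each is a separate mouse, so p-values measure the spread between these samples.

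Acid alpha-glucosidase, encoded by Gaa, breaks down glycogen inside lysosomes. Its loss causes Pompe disease, in which glycogen-filled lysosomes and blocked autophagy damage skeletal and heart muscle. Enzyme secreted by one tissue can be taken up by others through receptors for mannose 6-phosphate and delivered to their lysosomes.

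Each library held between 9299156 reads (KO_PBS 3) and 14406655 reads (KO_secGAA 3) in the genes of the table, and the wild-type libraries held 15477523 to 15957106. Values are normalized counts, that is reads plus 0.5 divided by a scaled library size, times 1000000, and 1 read was worth 0.0652 to 0.0922 in the knockout libraries. They are not divided by gene length. The tissue label held: Eno3, the muscle enolase, stood at 3879 to 4443 in KO_PBS and 5344 to 5785 in KO_secGAA. In bulk tissue, fewer cells of a type and less RNA per cell cannot be told apart.

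Mouse Gaa, the gene that the knockout label names (chr11:119267887-119285454, GRCm38), was at 17.8, 14.5 and 14.0 in KO_PBS and at 15.1, 15.6 and 16.6 in KO_secGAA. Reads of Gaa thus remained in every knockout library. The wild-type libraries were at 296, 129 and 264, so every knockout library lay below every wild-type library, as the labels say. KO_secGAA and KO_PBS overlapped, with a log2 difference of 0.04 (SE 0.26, limma adjusted p = 0.959). The transcript of the vector was not analysed here.

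Rises, falls and changes are the differences at which limma's p, adjusted over all genes tested, was under 0.05. By that rule 179 genes rose (1.37% of those tested) and 302 fell (2.31%), together 481 (3.67%). The median fold of the changed genes was 1.59 for rises and 1.71 for falls. At least 2-fold changes were found in 133 genes (1.02%), of which 41 rose (0.313%) and 92 fell (0.703%), and changes of at least 4-fold in 5 and 12 genes. For 24.0% of the genes tested the 3 libraries of one group lay wholly above or below those of the other, and all 481 changed genes are among them. The plot of all genes tested shows more falls than rises. Without TMM scaling factors the median of all genes moved from 0.00 to -0.14 on the log2 scale. The split then became 102 rises and 857 falls, that is 10.6% rises in place of 37.2%. Those factors differed between KO_PBS and KO_secGAA without overlap. The gene lists used below were chosen with earlier results of these data known. Their shares are set beside the 3.67% as descriptions and not as tests.

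**Figure D1:**
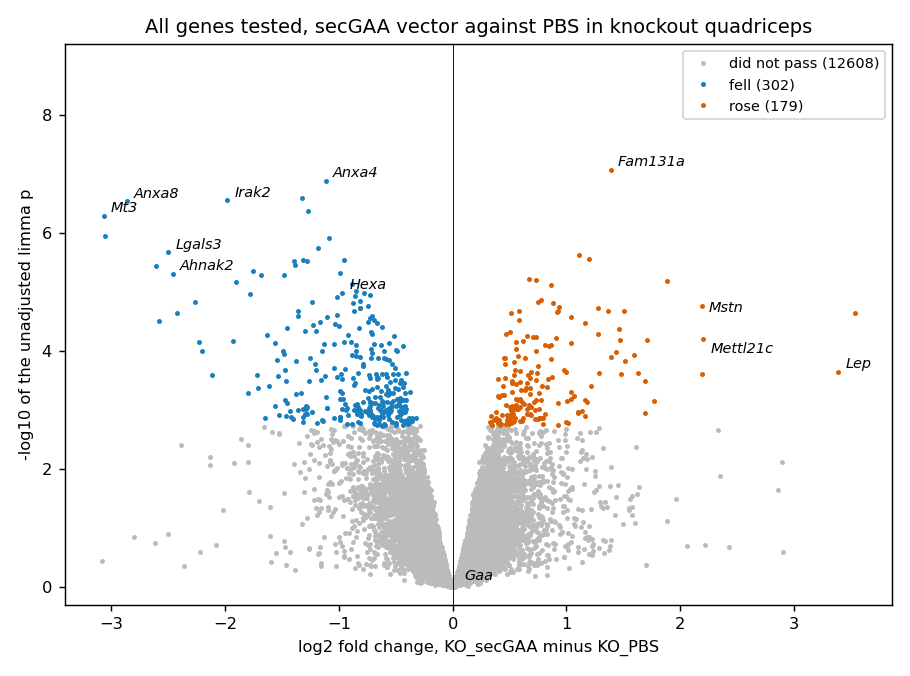
Each point is 1 of the 13089 genes tested, with the log2 fold change of KO_secGAA against KO_PBS on the horizontal axis and the -log10 of the unadjusted limma p on the vertical axis. The 302 genes that fell and the 179 that rose are coloured, Fam131a and Anxa4 stand among the highest points, and Gaa lies near 0 on both axes; labelled genes are examples named in the text.

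The largest rises, among named genes at 5 or more normalized counts, were those of Lep, Mettl21c, Mstn and Mettl11b. Lep encodes leptin, the hormone that fat cells release. Lep (chr6:29060220-29073877) was at 0.163, 2.48 and 1.43 in KO_PBS, at 32.3, 16.3 and 7.46 in KO_secGAA, and at 3.19, 3.76 and 1.74 in WT_PBS. Its KO_secGAA libraries spread over a wide range but all lay above the other 6. The fitted rise was 10.5-fold (log2 3.39, SE 0.60, limma adjusted p = 0.0181). Its size is uncertain, since KO_PBS 1 lay under 0.196, the worth of 3 reads in that library. Over the alternatives the log2 rise ran from 2.77, without KO_PBS 1, to 4.34, with limma voom. The call was lost without KO_secGAA 2 (adjusted p = 0.0678) and with limma voom. Of 13 adipocyte markers tested, 1 rose (Lep) and 0 fell (7.69%, against 3.67% of all genes tested), and the median log2 fold change was 0.75. Their summed level was 1002 to 1870 in KO_PBS, 1668 to 2697 in KO_secGAA and 1201 to 3231 in WT_PBS. Adipoq, the fat cell hormone adiponectin, was at 17.1, 24.7 and 9.70 in KO_PBS and at 47.7, 67.5 and 15.0 in KO_secGAA, with overlapping groups (adjusted p = 0.396; named after its values were seen). The part of fat cells in the rise of Lep was not tested.

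Myostatin and the lysine methyltransferase gene Mettl21c rose by more than 4-fold from low levels. Mstn (chr1:53061640-53068079), the secreted inhibitor of muscle growth, was at 5.12, 3.82 and 2.25 in KO_PBS and at 14.6, 17.4 and 23.02 in KO_secGAA. The groups did not overlap, and the wild-type libraries were higher than both at 61.5, 35.7 and 53.1. Mstn rose 4.56-fold (log2 2.19, SE 0.28, adjusted p = 0.00497). Mettl21c (chr1:44009408-44020034), which methylates lysines of muscle proteins, went from 9.56, 3.90 and 3.91 to 22.6, 25.1 and 31.5. KO_PBS 1 was the highest of its group and still lay below every treated library. The rise was 4.60-fold (log2 2.20, SE 0.33, adjusted p = 0.00857), and WT_PBS was at 76.5, 40.2 and 47.0. Mettl11b (chr1:163702256-163725232), which methylates protein N-termini, was at 1.99, 3.35 and 2.44 in KO_PBS and at 10.7 in each KO_secGAA library (3.69-fold, adjusted p = 0.00313). Neither Mstn, Mettl21c nor Mettl11b lost its call under any alternative tried.

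Fam131a, a gene of little-known function, had the smallest adjusted p among the rises named. Fam131a (chr16:20693241-20703048) was at 31.9, 34.7 and 35.4 in KO_PBS, at 85.2, 82.1 and 104 in KO_secGAA and at 114, 111 and 120 in WT_PBS. Both knockout groups were tight and far apart, at 2.62-fold (log2 1.39, SE 0.10, adjusted p = 0.000759). Pfkfb1 (chrX:150588229-150643878), whose enzyme sets the level of the glycolytic activator fructose 2,6-bisphosphate, went from 17.3, 11.9 and 13.9 to 49.8, 31.9 and 32.9 (2.57-fold, adjusted p = 0.00497). Its wild-type libraries were at 44.7, 47.6 and 50.004. Sorbs2, a Z-disc adaptor protein, rose 2.43-fold (adjusted p = 0.00497). Ybx2, an RNA-binding cold-shock protein, rose 2.78-fold (adjusted p = 0.00877). BC023105 rose 3.28-fold (adjusted p = 0.00879). These 5 genes kept their calls without any 1 library.

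The calls of Gdap1, Enox2 and Dkk3 depended on single libraries, and that of Amd1 held without any 1 of them. Gdap1, a mitochondrial outer membrane protein, rose 3.09-fold (adjusted p = 0.0184), but not without any 1 of the KO_secGAA libraries (adjusted p up to 0.0642) or with limma voom. Enox2, a cell-surface NADH oxidase, rose 2.63-fold (adjusted p = 0.0124), but not without KO_PBS 2 (adjusted p = 0.053). Dkk3, a secreted protein of the Dickkopf family, was at 1.40, 1.06 and 1.06 in KO_PBS, at 5.85, 4.94 and 4.86 in KO_secGAA and at 44.3, 12.05 and 22.0 in WT_PBS. Its call (3.42-fold, adjusted p = 0.0334) held without WT_PBS 1 or WT_PBS 2 and was lost without each of the other libraries, with an adjusted p of up to 0.101, with edgeR, with limma voom and without the variance trend. Amd1, a key enzyme of polyamine synthesis, was at 213, 298 and 256 in KO_PBS, 534, 663 and 956 in KO_secGAA and 1579, 1160 and 1405 in WT_PBS (2.75-fold, adjusted p = 0.00706). Its call held under all 21 alternatives (adjusted p at most 0.0286). Reads of Amd1 may be shared with its near-identical copy Amd2, so the value is uncertain. Amd1 was left out of the largest rises after its rank was seen, which brought in Sorbs2.

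**Figure D2:**
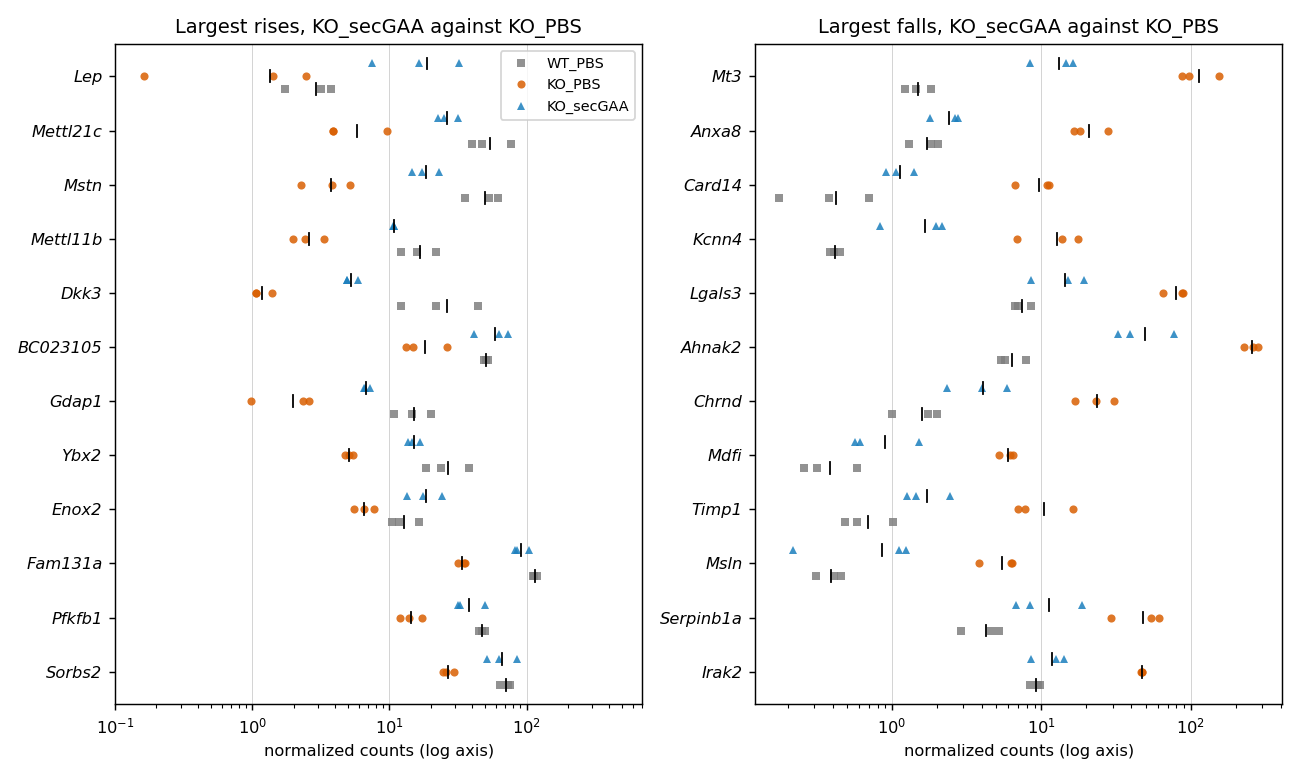
Normalized counts (log axis) of the 12 largest named rises on the left and the 12 largest named falls on the right, with 1 point per library and the group mean as a vertical line. In every row the 3 KO_secGAA points lie on one side of the 3 KO_PBS points; Lep spans the widest range.

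The largest named fall was that of Mt3. Mt3 (chr8:94152607-94154146), a metallothionein that binds zinc and copper, was at 87.7, 154 and 97.4 in KO_PBS and at 14.6, 8.44 and 16.3 in KO_secGAA. Mt3 fell 8.40-fold (log2 -3.07, SE 0.27, adjusted p = 0.000963), and its wild-type libraries were lower still, at 1.82, 1.44 and 1.22. Of 11 metallothionein and zinc genes tested, Mt3 fell and 0 rose (9.09%, against 3.67% of all genes tested), and the median log2 fold change was -0.02. Mt2, of the same family, was at 292, 195 and 108 in KO_PBS and at 31.9, 34.7 and 37.5 in KO_secGAA. Its groups did not overlap, but the spread within KO_PBS was wide and the test was not passed (log2 -2.39, adjusted p = 0.0744). Mt1 was at 264, 132 and 67.8 against 28.2, 46.4 and 31.9 (adjusted p = 0.108). Mt1 and Mt2 were named after their values were seen.

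Anxa8, Lgals3 and Irak2 fell from well above the wild-type libraries. In KO_secGAA, Anxa8 and Irak2 overlapped wild type. Lgals3 was still above wild type in KO_secGAA 1 and KO_secGAA 2, and KO_secGAA 3 was level with WT_PBS 1 (8.540 against 8.535). Anxa8 (chr14:34085981-34100571), an annexin that binds membranes with calcium, was at 16.6, 27.8 and 18.2 in KO_PBS, at 1.80, 2.75 and 2.63 in KO_secGAA and at 2.02, 1.30 and 1.81 in WT_PBS (7.28-fold, log2 -2.86, SE 0.23, adjusted p = 0.000759). Lgals3 (chr14:47367751-47386160) encodes galectin 3, a sugar-binding protein of macrophages that also gathers on damaged lysosomes. It was at 86.6, 88.3 and 64.9 in KO_PBS and at 19.3, 15.1 and 8.54 in KO_secGAA (5.66-fold, adjusted p = 0.00229), with WT_PBS at 8.53, 6.64 and 6.92. Irak2 (chr6:113638467-113695026), a kinase below interleukin 1 and Toll-like receptors, was nearly the same in every KO_PBS library, at 47.4, 46.1 and 46.9. In KO_secGAA it was at 12.5, 8.52 and 14.1 and in WT_PBS at 9.43, 9.73 and 8.40 (3.96-fold lower in KO_secGAA, adjusted p = 0.000759).

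Ahnak2 (chr12:112772194-112802657), a giant scaffold protein of the AHNAK family, fell from 227, 284 and 261 to 77.1, 32.3 and 39.2. KO_secGAA 1 was the highest of its group, and the wild-type libraries were at 5.38, 7.83 and 5.74. The fall was 5.51-fold (log2 -2.46, SE 0.28, adjusted p = 0.00285). Card14 (chr11:119307768-119345375), a scaffold of NF-kappa B signalling, fell 6.11-fold (adjusted p = 0.00248). It lies close to Gaa, which ends at position 119285454 of the same chromosome. Card14 was at 11.3, 10.8 and 6.67 in KO_PBS, at 1.06, 0.918 and 1.41 in KO_secGAA and at 0.377, 0.176 and 0.703 in WT_PBS. A part of its place near Gaa in these levels was not tested. Mdfi, an inhibitor of MyoD family factors, fell 4.80-fold (adjusted p = 0.00467). Timp1, an inhibitor of matrix metalloproteinases, fell 4.68-fold (adjusted p = 0.00898). Msln, the cell-surface protein mesothelin, fell 4.61-fold (adjusted p = 0.0107), but not without KO_PBS 2 (adjusted p = 0.0527). Serpinb1a, an inhibitor of neutrophil proteases, fell 4.34-fold (adjusted p = 0.0184), a call lost without KO_PBS 2, KO_PBS 3, KO_secGAA 2 or KO_secGAA 3 (adjusted p up to 0.0777). Mt3, Anxa8, Lgals3, Irak2, Ahnak2, Card14, Mdfi and Timp1 kept their calls without any 1 library.

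Lysosomal genes fell as a minority with small changes, and most of the rest lay slightly below KO_PBS. Over 4 lists that were joined after their counts were seen, 12 of 90 tested members fell and 1 rose, 14.4% against 3.67% of all genes tested. Of the 90, 78 had a fitted value below KO_PBS (86.7%, against 49.97% of all genes tested). Among hydrolases 2 of 33 fell (median log2 -0.22), among proteases and their inhibitors 4 of 15 (median -0.36), among membrane and sorting proteins 3 of 25 with 1 rise (median -0.22), and among proton pump subunits 3 of 17 (median -0.19). The median over all genes tested was 0.00. With 1 library left out the counts of changed members ran from 1 to 2, 2 to 4, 1 to 5 and 0 to 3 in that order, with the lowest of the proton pump at 0.

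Hexa encodes the alpha chain of beta-hexosaminidase, which trims gangliosides. Hexa (chr9:59539540-59565109) was at 170, 194 and 140 in KO_PBS, at 80.7, 90.9 and 82.1 in KO_secGAA and at 64.4, 60.8 and 56.6 in WT_PBS. All treated libraries lay below all PBS knockouts, by 1.96-fold (log2 -0.97, SE 0.12, adjusted p = 0.00416). Dnase2a, the acid DNase, fell 1.59-fold (adjusted p = 0.042). Lgmn (chr12:102394084-102439813), an asparagine-specific protease also called legumain, went from 68.4, 89.1 and 79.6 to 45.4, 43.9 and 38.6 (1.84-fold, adjusted p = 0.00467). Ctsl (chr13:64359337-64370890), cathepsin L, went from 237, 195 and 229 to 139, 153 and 106 (1.67-fold, adjusted p = 0.0184). Both stayed above their wild-type libraries, which were at 30.7 to 34.6 for Lgmn and 75.7 to 81.5 for Ctsl. Ctsz, cathepsin Z, fell 1.47-fold (adjusted p = 0.0389), and Cstb, which inhibits cathepsins, fell 1.80-fold (adjusted p = 0.0122).

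Of lysosomal membrane proteins, Lamp1 and Cd63 fell and Laptm4b rose. Lamp1 (chr8:13159161-13175338), a main glycoprotein of the lysosomal membrane, was at 699, 773 and 648 in KO_PBS, at 446, 450 and 498 in KO_secGAA and at 451, 516 and 489 in WT_PBS. The treated libraries lay within the range of wild type or just under it (1.52-fold lower than KO_PBS, log2 -0.60, SE 0.10, adjusted p = 0.0107). Cd63 (chr10:128900989-128912822), a tetraspanin of late endosomes, went from 352, 338 and 327 to 171, 202 and 208 (1.75-fold, adjusted p = 0.00497). Gga2, an adaptor that sorts enzymes bound to mannose 6-phosphate receptors, fell 1.38-fold (adjusted p = 0.036). Laptm4b, a transmembrane protein of late endosomes, rose 1.42-fold (adjusted p = 0.0367). Of the proton pump, which acidifies the lysosome, the subunit Atp6v1a (chr16:44085402-44139705) was at 40.8, 41.7 and 47.3 in KO_PBS and at 25.0, 22.0 and 31.0 in KO_secGAA (1.67-fold lower, adjusted p = 0.0267). Atp6v1h and the accessory protein Atp6ap2 fell 1.45-fold and 1.40-fold (adjusted p = 0.036 and 0.042).

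Hexa, Lgmn and Cd63 kept their calls without any 1 library (adjusted p at most 0.0254). Lamp1 and Cstb lost theirs only without KO_secGAA 2 (0.0544 for both), and Ctsl without KO_PBS 1 or KO_PBS 3 (up to 0.0632). Atp6v1a lost its call without any 1 of the KO_PBS libraries, KO_secGAA 1 or KO_secGAA 2 (up to 0.0906). Dnase2a, Ctsz, Gga2, Laptm4b, Atp6v1h and Atp6ap2 each held in at most 3 of 9 such fits (adjusted p up to 0.142), and leaving out KO_PBS 1, KO_PBS 2 or KO_secGAA 3 ended every 1 of these 6 calls. Of 29 macrophage markers 1 fell and 0 rose (3.45%, against 3.67% of all genes tested), at a median log2 fold change of -0.41. The 1 that fell was Cd68, a lysosomal glycoprotein of macrophages, from 12.2, 14.8 and 13.0 to 5.85, 8.35 and 5.44 (adjusted p = 0.042). The Cd68 call held only without WT_PBS 1 or WT_PBS 2 and was lost without each other library (adjusted p up to 0.14). The summed level of the macrophage markers was 346 to 494 in KO_PBS, 192 to 405 in KO_secGAA and 143 to 221 in WT_PBS, so the knockout groups overlapped. In the average of their log2 values KO_secGAA 3 stood lowest of the knockout libraries, and KO_secGAA 1 and KO_secGAA 2 lay within the range of KO_PBS. None of Cd68, Adgre1 and Gpnmb was at 0, and the latter pair was named after its values were seen. The part of macrophages in the falls of Lgals3 and of the lysosomal genes was not tested.

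**Figure D3:**
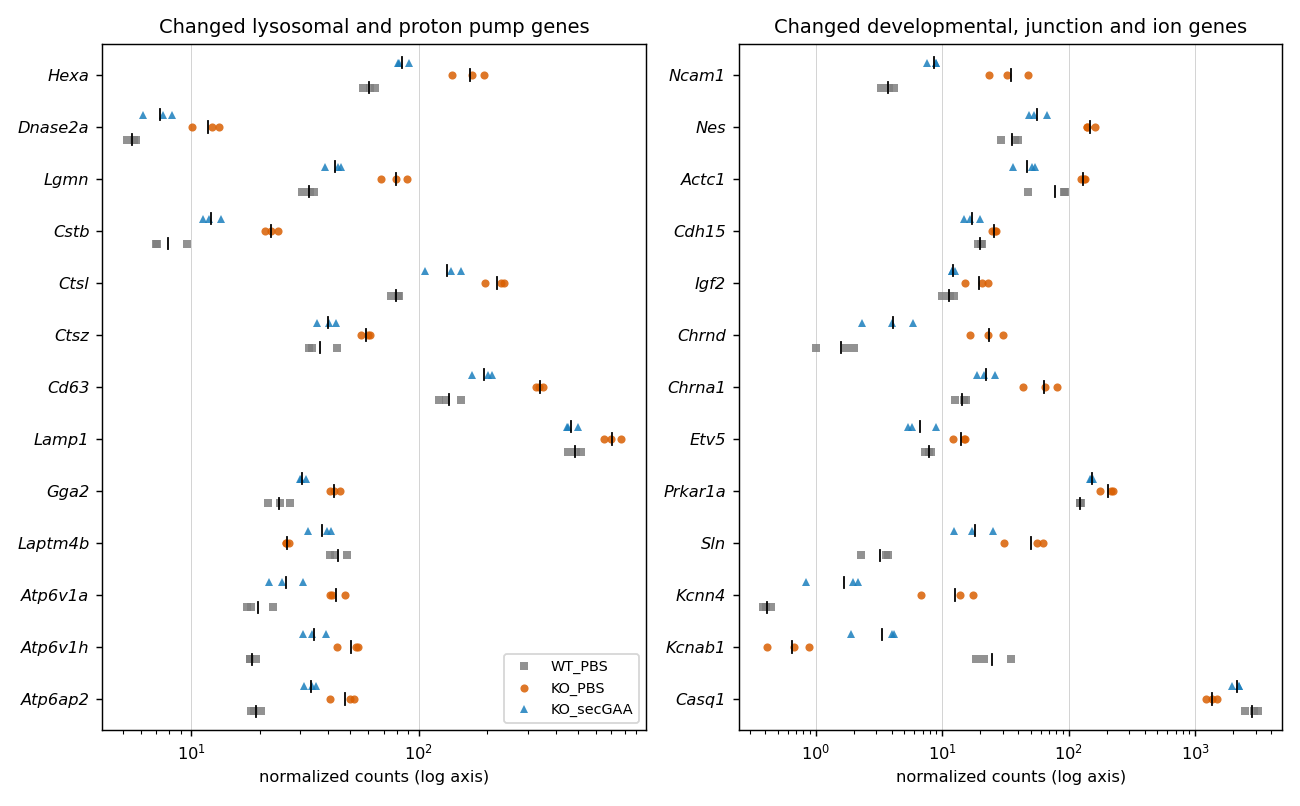
Normalized counts (log axis) of changed lysosomal and proton pump genes on the left and of chosen changed genes of development, the neuromuscular junction and ion handling on the right, 1 point per library with the group mean as a vertical line. The KO_secGAA points of Lamp1 overlap the wild-type points, those of Atp6v1h and Atp6ap2 lie between the other groups, and Kcnab1 rose but stayed far below wild type.

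Lysosomal genes are known to carry a short E-box in their promoters that transcription factors of the TFEB family bind, and the 250 bases before each start in RefSeq's promoter table (GRCm38.p6) were searched for it on both strands. The letters CACGTG were in 6.02% of 32851 windows, in 10.1% of 9748 tested genes with a window, in 26.1% of 69 lysosomal genes with a window (18 genes), and in 4 of the 10 fallen lysosomal genes with a window. They were in 14.3% of the fallen and 7.14% of the risen genes. The stretches around the matches of these 4 fallen genes are shown to place the letters within RefSeq's windows, and they were chosen after the matches were seen. Capitals mark CACGTG, which reads the same on both strands, so that a match on one strand is the same match on the other. Lamp1 holds 4 matches within 61 to 15 bases before its start, at chr8:13159080-13159160 on the plus strand. The Lgmn stretch is at chr12:102439116-102439161, that of Ctsl at chr13:64370731-64370770 and that of Atp6v1a at chr16:44139365-44139410, all on the minus strand, with matches 49, 236 and 131 bases before RefSeq's start. In GENCODE these 3 genes begin further upstream, so that the stretches lie inside the gene spans given for Lgmn, Ctsl and Atp6v1a, and only that of Lamp1 lies before the gene.
Lamp1: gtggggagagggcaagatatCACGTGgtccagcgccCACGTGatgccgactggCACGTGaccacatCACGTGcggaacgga
Lgmn: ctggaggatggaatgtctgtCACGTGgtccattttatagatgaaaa
Ctsl: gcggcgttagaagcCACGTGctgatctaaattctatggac
Atp6v1a: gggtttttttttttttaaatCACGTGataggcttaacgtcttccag
A match is a description of letters and not a binding site. Tfeb itself was at 76.3, 78.8 and 70.0 in KO_PBS and at 72.8, 77.4 and 77.5 in KO_secGAA, with overlapping groups (adjusted p = 0.936; named after its values were seen).

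Further motifs were searched in the same windows. The metal response element TGCNCNC was in 44.4% of all windows, 57.4% of tested genes, 57.6% of fallen genes, 57.9% of risen genes and 2 of the 10 fallen lysosomal genes. The antioxidant response element TGACNNNGC was in 10.2% of all windows, 14.3% of tested genes, 14.7% of fallen genes, 11.9% of risen genes and 4 of the 10 fallen lysosomal genes. The C/EBP-ATF composite element TGATGNAA was in 3.45%, 2.40%, 3.90% and 1.59% of the same groups and in 1 of those 10 genes. TGCNCNC and TGACNNNGC hold free positions and may overlap other motifs.

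Of the nutrient sensing genes, 3 subunits of AMP-activated protein kinase (AMPK), the sensor of low cellular energy, passed the test. Of 36 autophagy genes 1 fell (2.78%, against 3.67% of all genes tested), Gabarap, which coats autophagosomes (1.32-fold, adjusted p = 0.0475), and its call held only without KO_PBS 3. Sqstm1, the cargo receptor p62, was at 1491, 1224 and 1277 in KO_PBS and at 842, 906 and 986 in KO_secGAA. Its groups did not overlap, but the test was not passed (adjusted p = 0.0647); Sqstm1 was named after its values were seen. Of 35 genes of mTORC1, AMPK and TFEB, 2 fell and 1 rose (8.57%, median -0.04), all of them AMPK subunits; 1 of the 35 passed without KO_PBS 2 or KO_secGAA 3. The gamma subunit Prkag2 fell from 32.5, 29.3 and 30.0 to 15.5, 16.0 and 18.1 (1.83-fold, adjusted p = 0.00497). The catalytic subunit Prkaa1 fell 1.60-fold (adjusted p = 0.0184), a call lost without KO_PBS 2, KO_PBS 3, KO_secGAA 2 or KO_secGAA 3 (up to 0.0777). The beta subunit Prkab2 rose from 147, 154 and 184 to 278, 229 and 326 (1.71-fold, adjusted p = 0.0325), a call lost without WT_PBS 3, KO_PBS 1, KO_PBS 2, KO_secGAA 1 or KO_secGAA 3 (up to 0.105), without scaling factors and with quantile normalization.

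A few genes of glycogen and glucose breakdown rose. Of 22 glycogen genes 2 rose and 0 fell (9.09%, against 3.67% of all genes tested). Of the 22, 16 lay above KO_PBS and 6 below, and the median log2 fold change was 0.22 (0.08 without scaling factors). Without WT_PBS 1 the count was 4, and without KO_PBS 2 it was 1. Both encode subunits of phosphorylase kinase, which switches on glycogen breakdown in the cytosol. Phkg1 (chr5:129863421-129898549), its catalytic subunit, was at 259, 248 and 297 in KO_PBS, at 426, 431 and 568 in KO_secGAA and at 595, 541 and 625 in WT_PBS. The groups were well apart, at 1.76-fold (log2 0.82, SE 0.13, adjusted p = 0.00921). Phkb rose 1.67-fold (adjusted p = 0.0107), but not without KO_PBS 2 (0.0508). Pygm, muscle glycogen phosphorylase, was at 4648, 4317 and 4628 against 6375, 6258 and 7773 in KO_secGAA, and Gys1, glycogen synthase, at 425, 356 and 353 against 399, 423 and 398. Neither passed the test (adjusted p = 0.077 and 0.622); both were named after their values were seen.

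Of 26 glycolytic genes 4 rose and 1 fell (19.2%, against 3.67% of all genes tested). Of the 26, 18 lay above KO_PBS and 8 below (median log2 0.23, and 0.08 without scaling factors). Without WT_PBS 3, KO_PBS 2, KO_secGAA 2 or KO_secGAA 3 the count of 5 was 3. Gpd1 (chr15:99717515-99725005), which makes glycerol 3-phosphate, rose from 213, 199 and 256 to 404, 399 and 468 (1.91-fold, adjusted p = 0.00497). Hk1, the hexokinase of most non-muscle cells, fell from 21.8, 21.7 and 24.1 to 12.1, 10.8 and 9.76 (2.03-fold, adjusted p = 0.00427), with WT_PBS at 7.92, 6.22 and 6.995. Gpd1, Hk1 and Pfkfb1 kept their calls without any 1 library. Tpi1 and Pgam2, which act in the middle and late steps of glycolysis, were among the changed genes with the highest normalized counts. Tpi1 was at 1829, 1716 and 1711 in KO_PBS and at 2361, 2451 and 2767 in KO_secGAA (1.44-fold, adjusted p = 0.0268), a call that held without WT_PBS 1, WT_PBS 2 or KO_secGAA 1 and was lost without each other library (up to 0.101) and with quantile normalization (log2 0.24, adjusted p = 0.27). Pgam2 rose 1.48-fold (adjusted p = 0.0378) and held only without WT_PBS 1 or KO_PBS 1 (up to 0.126).

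No gene of the mitochondrial lists passed the test. Of 55 nuclear genes of oxidative phosphorylation, 13 genes encoded by mitochondrial DNA, 22 of the TCA cycle and 24 of fatty acid oxidation, 0 changed, at medians of 0.16, 0.40, 0.27 and 0.19 on the log2 scale (0.01, 0.24, 0.12 and 0.03 without scaling factors). At an unadjusted limma p under 0.05 there were 7 of 55, 7 of 13, 11 of 22 and 2 of 24, against 19.3% of all genes tested. Of the listed genes 42, 13, 21 and 21, in the same order, lay above KO_PBS, whereas 49.97% of all genes tested lay below it. In the average of their log2 values the libraries of the knockout groups overlapped for oxidative phosphorylation and fatty acid oxidation and did not for the other two lists. Mitochondrial transcripts took 9.85% to 10.7% of the reads in KO_PBS, 11.4% to 12.2% in KO_secGAA and 11.6% to 17.0% in WT_PBS. The knockout groups did not overlap in that share. The gene mt-Nd5, of respiratory complex I, was at 2580, 3007 and 2736 in KO_PBS and at 3926, 3627 and 3800 in KO_secGAA (log2 0.45, adjusted p = 0.0719). Without WT_PBS 1 the 4 lists held 3, 5, 4 and 1 changed genes, and without any 1 other library 0. Sdha, of complex II, differed by 0.38 (adjusted p = 0.0645), and Acadm, an acyl-CoA dehydrogenase, by 0.54 (adjusted p = 0.104).

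Genes of muscle development that are low in adult fibres fell in part. Of 15 embryonic and cardiac muscle genes 5 fell and 0 rose (33.3%, against 3.67% of all genes tested), at a median log2 fold change of -0.81. The count was 3 without KO_PBS 1, KO_PBS 3, KO_secGAA 1 or KO_secGAA 2. Ncam1 (chr9:49502136-49798925), an adhesion protein of new and denervated fibres, was at 32.7, 23.5 and 47.8 in KO_PBS, at 8.99, 7.65 and 8.97 in KO_secGAA and at 4.15, 3.83 and 3.29 in WT_PBS. Its groups were far apart, at 3.75-fold (log2 -1.91, SE 0.22, adjusted p = 0.00313). Nes (chr3:87971078-87980451), the intermediate filament nestin, fell from 140, 162 and 141 to 67.3, 48.2 and 53.1 (2.63-fold, adjusted p = 0.00229). Actc1, cardiac actin, went from 135, 125 and 131 to 50.8, 53.8 and 36.3 (2.79-fold, adjusted p = 0.0117), which overlaps the low end of its wild-type libraries at 91.3, 47.7 and 93.7. Cdh15, M-cadherin of satellite cells, fell 1.504-fold (adjusted p = 0.0237), a call lost without any 1 of the KO_PBS libraries, KO_secGAA 1 or KO_secGAA 2 (up to 0.0852). The remaining member that fell was the growth factor gene Igf2 (1.57-fold, adjusted p = 0.0479; named after its values were seen).

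No slow fibre gene passed the test. Of 11 tested, 0 changed at a median of -0.79, and 1 had an unadjusted limma p under 0.05, against 19.3% of all genes tested. Myh7, the slow myosin heavy chain, was at 656, 101 and 116 in KO_PBS and at 94.1, 15.6 and 203 in KO_secGAA, and named after its values were seen. KO_PBS 1 stood far above the others of its group and the groups overlapped (adjusted p = 0.576). Of 14 fast fibre genes 1 rose and 0 fell (7.14%, against 3.67% of all genes tested), at a median of 0.34. The 1 that rose was Casq1, the calcium store protein calsequestrin 1. Of 12 myogenic factors 0 changed; Mymk, the myoblast fusion protein, was at 4.01, 2.09 and 2.44 against 1.24, 0.743 and 0.685 (adjusted p = 0.0547). Of 9 satellite cell markers, 1 fell (Cdh15, 11.1%).

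Some genes that muscle is known to make when it loses its nerve fell as well. Of 23 genes of the neuromuscular junction and denervation 6 fell and 0 rose (26.1%, against 3.67% of all genes tested). Their median was -0.43, and 3 passed without KO_PBS 1 or KO_secGAA 2. Chrnd (chr1:87190607-87200070), the delta subunit of the acetylcholine receptor, was at 16.7, 23.2 and 30.4 in KO_PBS, at 5.85, 3.98 and 2.34 in KO_secGAA and at 1.75, 2.002 and 0.999 in WT_PBS. Every treated library was below every PBS knockout and above every wild type (5.38-fold lower than KO_PBS, log2 -2.43, SE 0.32, adjusted p = 0.00497). Chrna1, the alpha subunit, went from 64.9, 43.5 and 81.3 to 26.1, 21.4 and 18.9 (2.75-fold, adjusted p = 0.00686). Etv5, a transcription factor of the junction, fell 2.06-fold (adjusted p = 0.0162), a call lost without KO_PBS 1, KO_PBS 3, KO_secGAA 2 or KO_secGAA 3 (up to 0.0678). Chrne, the subunit of the adult receptor, was at 11.8, 9.57 and 16.7 against 13.8, 10.97 and 13.8 (adjusted p = 0.939), and Chrng, that of the fetal receptor, at 3.69, 1.06 and 5.47 against 1.06, 0.918 and 0.685 (adjusted p = 0.143). Chrne and Chrng were named after their values were seen.

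Mstn and its inhibitor Fst moved in opposite directions. Of 18 genes of myostatin and activin signalling (11.1% changed) 1 rose (Mstn) and 1 fell, Fst, whose product follistatin binds and blocks myostatin. Fst was at 8.12, 11.5 and 9.24 in KO_PBS and at 6.13, 5.03 and 5.37 in KO_secGAA (1.67-fold lower, adjusted p = 0.0314). That call was lost without WT_PBS 3, KO_PBS 2, KO_PBS 3, KO_secGAA 2 or KO_secGAA 3 (up to 0.103). Of 15 genes of FoxO and the atrophy ubiquitin ligases 1 rose (6.67%), the transcription factor gene Foxo4 (1.46-fold, adjusted p = 0.0137), though not without KO_PBS 2, KO_secGAA 2 or KO_secGAA 3 (up to 0.0601). Trim63, the ligase MuRF1, was at 907, 357 and 389 against 248, 261 and 459, with overlapping groups (adjusted p = 0.568; named after its values were seen). Of 27 genes of insulin signalling and glucose uptake 1 fell and 0 rose (3.70%, against 3.67% of all genes tested). The 1 that fell was Akt1, a kinase of insulin signalling (1.65-fold, adjusted p = 0.00758).

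Calcium and potassium handling genes moved both ways. Of 24 calcium handling genes 4 rose and 2 fell (25%, against 3.67% of all genes tested). The median was 0.13 and became -0.02 without scaling factors. The count of 6 was 2 without WT_PBS 3, KO_PBS 1 or KO_secGAA 2 and 1 without KO_PBS 2. Casq1 (chr1:172209894-172219868) was at 1225, 1368 and 1486 in KO_PBS and at 2212, 1949 and 2229 in KO_secGAA, with WT_PBS at 3120, 2469 and 2910 (1.57-fold, adjusted p = 0.0247). Its call held only without WT_PBS 1, WT_PBS 2 or KO_PBS 3 (up to 0.0844 without the others), and was lost without scaling factors and with quantile normalization (up to 0.149). Jph1, which ties the calcium store to the fibre membrane, rose 1.49-fold (adjusted p = 0.012), but not without KO_PBS 2 (0.053). Cacnb1, the beta subunit of the muscle calcium channel, fell from 331, 323 and 335 to 198, 158 and 210 (1.76-fold, adjusted p = 0.00497), with WT_PBS at 171, 183 and 187. Sln, the pump inhibitor sarcolipin, fell 2.69-fold (adjusted p = 0.0387), and Mrln, the pump inhibitor myoregulin, rose 2.10-fold (adjusted p = 0.0301). Neither of these calls held without WT_PBS 3, KO_PBS 1, KO_PBS 2 or KO_secGAA 2, and Sln and Mrln were named after their values were seen.

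Of 23 potassium channel genes 4 fell and 1 rose (21.7%, against 3.67% of all genes tested), at a median of 0.18. The count of 5 was 3 without KO_PBS 1, 2 without KO_PBS 3 and 1 without KO_PBS 2, KO_secGAA 2 or KO_secGAA 3. Kcnn4 (chr7:24370263-24386690), a calcium-activated potassium channel, was at 6.82, 17.5 and 13.7 in KO_PBS, at 2.17, 0.830 and 1.98 in KO_secGAA and at 0.446, 0.386 and 0.407 in WT_PBS. It fell 5.98-fold (log2 -2.58, SE 0.36, adjusted p = 0.00592) and kept its call without any 1 library. Kcnn3, a related channel, fell 2.77-fold (adjusted p = 0.0204). Kcnab1, a subunit of voltage-gated channels, rose from 0.881, 0.670 and 0.414 to 1.89, 4.15 and 3.9995 (3.24-fold, adjusted p = 0.0207), against 34.9, 18.4 and 21.4 in WT_PBS. The calls of Kcnn3 and Kcnab1 were each lost without KO_PBS 2, KO_PBS 3, KO_secGAA 2 or KO_secGAA 3, and that of Kcnn3 also without KO_PBS 1 (up to 0.0826).

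Some genes of membrane repair and of the dystrophin complex, which links the fibre's skeleton to the matrix, fell. Of 23 repair and annexin genes 5 fell, 0 rose and 18 did not pass (median -0.45), so 21.7% changed, against 3.67% of all genes tested. Anxa8, given above, is not among these 23. Without KO_PBS 2 or KO_secGAA 2, 3 passed. Anxa4 (chr6:86736840-86793584), an annexin, was at 96.5, 97.4 and 94.2 in KO_PBS, at 47.0, 40.4 and 44.8 in KO_secGAA and at 20.4, 18.6 and 19.8 in WT_PBS. The libraries of each group were close together and the groups far apart (2.17-fold lower, log2 -1.12, SE 0.08, adjusted p = 0.000759). S100a4, a calcium-binding protein, fell 3.37-fold (adjusted p = 0.00285). Dysf, the repair protein dysferlin, fell from 101, 118 and 104 to 65.6, 61.8 and 77.9 (1.57-fold, adjusted p = 0.0196), a call lost without KO_PBS 2, KO_PBS 3, KO_secGAA 1 or KO_secGAA 2 (up to 0.0793). Of 20 dystrophin complex genes 4 fell (20%, against 3.67% of all genes tested), 0 rose and 16 did not pass (median -0.17). Nos1, the neuronal nitric oxide synthase held by the complex, was at 100, 46.7 and 60.5 in KO_PBS, at 18.5, 26.6 and 36.1 in KO_secGAA and at 50.8, 58.1 and 63.0 in WT_PBS (2.49-fold lower than KO_PBS, adjusted p = 0.0378). KO_PBS 1 was the highest library, and all treated libraries lay below all wild types. Dmd, dystrophin itself, fell 1.39-fold (adjusted p = 0.0387), Sgcd, delta-sarcoglycan, 1.61-fold (0.0342), and Lama2, the laminin alpha 2 chain, 1.42-fold (0.0489). Without 1 library 0 to 3 members of the list passed. Each of these 4 calls held in at most 3 of 9 fits without 1 library, and that of Lama2 in 0; all were lost without WT_PBS 3, KO_PBS 1, KO_PBS 3, KO_secGAA 1 or KO_secGAA 2 (adjusted p up to 0.157).

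Some matrix genes and single immune genes fell. Of 39 extracellular matrix genes 5 fell and 0 rose (12.8%, against 3.67% of all genes tested), at a median of -0.31. Without KO_PBS 2, KO_PBS 3, KO_secGAA 1 or KO_secGAA 3, 3 passed. Lum, the collagen-binding proteoglycan lumican, was at 47.5, 68.7 and 69.9 in KO_PBS, at 29.6, 22.7 and 25.7 in KO_secGAA and at 19.4, 24.4 and 18.0 in WT_PBS (2.34-fold lower, log2 -1.23, SE 0.17, adjusted p = 0.00643). Mmp2, a gelatinase, fell 1.68-fold (adjusted p = 0.00598), and both calls held without any 1 library. Bgn, the proteoglycan biglycan, fell 1.96-fold (adjusted p = 0.0199), a call lost without KO_PBS 2, KO_PBS 3, KO_secGAA 1 or KO_secGAA 3 (up to 0.08). Fibroblast markers summed to 1381 to 1947 in KO_PBS and 1364 to 1848 in KO_secGAA, with 1 of 13 fallen (Lum, 7.69%). Their part in the matrix falls was not tested. Of 28 interferon response genes 2 fell and 0 rose (7.14%, against 3.67% of all genes tested). Ifi35 fell 1.63-fold (adjusted p = 0.0112), and its call held without any 1 library. Ifih1, a sensor of double-stranded RNA, fell 1.78-fold (adjusted p = 0.0471), a call that held only without WT_PBS 1 (up to 0.152). Of 20 antigen presentation and 18 complement genes 0 changed, at medians of -0.30 and -0.08. Of 7 galectins, Lgals3 and Lgals1 fell and 0 rose (28.6%, against 3.67% of all genes tested). The median of the 7 was 0.06, with 4 above KO_PBS and 3 below. Lgals1, which binds surface sugars, went from 450, 485 and 393 to 238, 224 and 268 (1.81-fold, adjusted p = 0.00426). That was below its wild-type libraries of 305, 279 and 321.

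Redox genes changed in both directions. Of 30 genes of NRF2 and redox control 3 fell and 1 rose (13.3%, against 3.67% of all genes tested), at a median of -0.19. The count of 4 was 2 without KO_PBS 3, KO_secGAA 2 or KO_secGAA 3 and 1 without KO_PBS 1. Gpx4, which reduces lipid peroxides, fell from 657, 610 and 632 to 358, 451 and 444 (1.52-fold, adjusted p = 0.0124), with WT_PBS at 379, 400 and 374, and the call held without any 1 library. Txn1, thioredoxin, fell 1.44-fold (adjusted p = 0.0184), and Pgd, of the pentose phosphate pathway, 1.96-fold (adjusted p = 0.028). Me1, malic enzyme, rose 1.44-fold (adjusted p = 0.036). Txn1 was lost without KO_PBS 1, KO_secGAA 1 or KO_secGAA 3 (up to 0.0634), Pgd without KO_PBS 1, KO_PBS 3, KO_secGAA 2 or KO_secGAA 3 (up to 0.0859), and Me1 held only without WT_PBS 1, WT_PBS 2 or KO_secGAA 1 (up to 0.106). In each of the integrated stress response (30 genes), aminoacyl-tRNA synthetases (27), small heat shock proteins and chaperones (19), cytosolic ribosomal proteins (44) and proteasome (32), 0 genes changed. Trib3, a target of the stress factor ATF4, was at 15.8, 7.37 and 27.1 in KO_PBS, at 11.5, 16.4 and 5.37 in KO_secGAA and at 0.857, 1.09 and 0.925 in WT_PBS. The knockout groups overlapped (adjusted p = 0.586), and Trib3 was named after its values were seen. Of 22 endoplasmic reticulum chaperones 1 fell (4.55%, against 3.67% of all genes), Canx, calnexin (1.40-fold, adjusted p = 0.0184), though not without KO_PBS 1, KO_PBS 2 or KO_secGAA 3 (up to 0.0614).

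**Figure D4:**
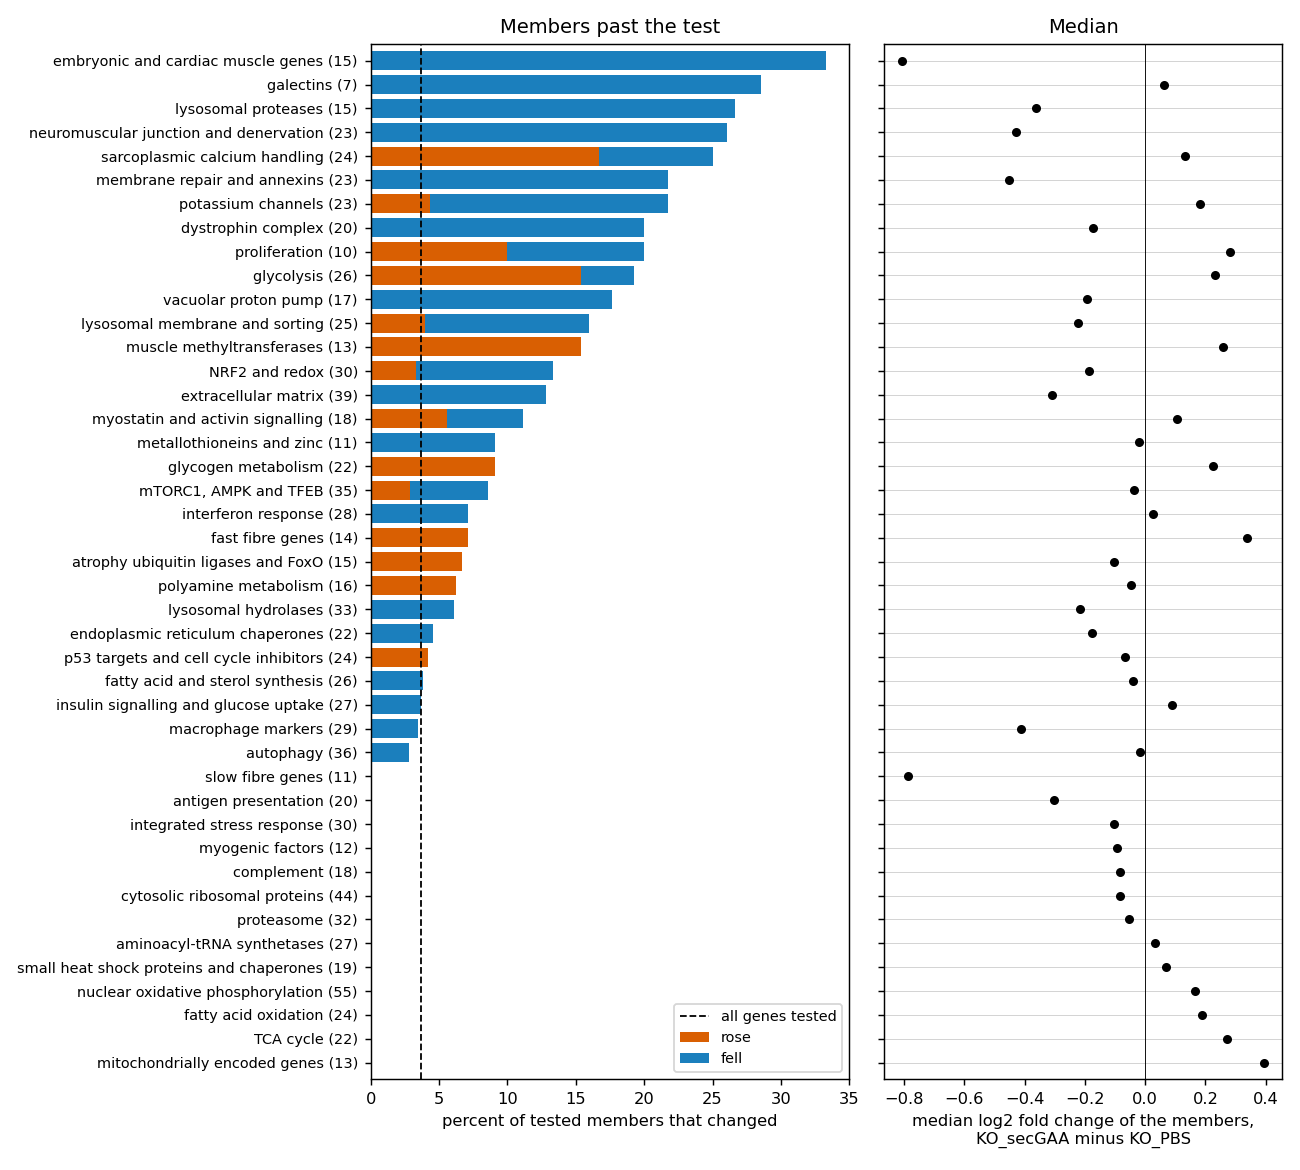
The left panel shows the percentage of tested members of each function list that rose or fell in KO_secGAA against KO_PBS, with the number tested in brackets and the 3.67% of all genes tested as a dashed line, and the right panel shows the median log2 fold change of the members. With all 9 libraries in the fit 33.3% of the embryonic and cardiac muscle genes changed. In the mitochondrial lists and the integrated stress response 0 genes did. These counts move with single libraries, and the lists were chosen with earlier results of these data known.

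Among changed genes with the highest normalized counts, which are not corrected for gene length, were others with small folds. Cpe, a carboxypeptidase that trims hormones and neuropeptides, was at 734, 794 and 799 in KO_PBS and at 518, 489 and 570 in KO_secGAA (1.48-fold lower, adjusted p = 0.0127), a call lost without KO_PBS 2 or KO_secGAA 2 (up to 0.0612). Serpinb6a, a protease inhibitor, fell 1.39-fold (adjusted p = 0.034), and Ahnak, the large scaffold related to Ahnak2, 1.38-fold (0.0411). Sh3bgr, which has a glutamic acid-rich tail, rose 1.33-fold (adjusted p = 0.0447). Each of these last 3 calls held in at most 3 of 9 fits without 1 library (up to 0.14), with all 3 lost without WT_PBS 3, KO_PBS 1, KO_PBS 2, KO_PBS 3 or KO_secGAA 2.

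Small function lists held a few more calls. Of the muscle methyltransferase genes 15.4% changed, of the polyamine genes 6.25% and of the proliferation genes 20%. Of the p53 targets and cell cycle inhibitors 4.17% changed, and of the fatty acid and sterol genes 3.85%, both near the 3.67% of all genes tested. Of 13 muscle methyltransferase genes 2 rose, Mettl21c and Smyd1, a lysine methyltransferase needed for sarcomeres (1.34-fold, adjusted p = 0.0485), whose call held only without WT_PBS 1 (up to 0.14). Of 16 polyamine genes 1 rose (Amd1). Of 10 proliferation genes 1 rose and 1 fell, both subunits of ribonucleotide reductase: Rrm1 rose from 22.2, 21.6 and 23.5 to 39.1, 31.5 and 35.3 (1.56-fold, adjusted p = 0.0124) and Rrm2 fell from 3.82, 3.98 and 3.72 to 2.17, 1.79 and 1.19 (1.99-fold, adjusted p = 0.042). Rrm1 was lost without KO_PBS 2 (0.053), and Rrm2 held only without WT_PBS 1 or KO_secGAA 1 (up to 0.132). Of 24 p53 targets and cell cycle inhibitors 1 rose, the inhibitor gene Cdkn1c (2.06-fold, adjusted p = 0.0323), which held only without WT_PBS 1, WT_PBS 2 or KO_secGAA 1 (up to 0.106). Of 26 genes of fatty acid and sterol synthesis 1 fell, Cyp51, an enzyme of cholesterol synthesis (1.53-fold, adjusted p = 0.0421), which held only without WT_PBS 1 (up to 0.132).

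Of the remaining cell type lists, 14 endothelial markers gave 0 changes at a median of 0.40. Their summed level was 196 to 252 in KO_PBS and 277 to 326 in KO_secGAA, without overlap, and 268 to 331 in WT_PBS. Pecam1, an endothelial adhesion protein, was at 26.1, 31.6 and 33.0 against 38.5, 46.5 and 40.1 (adjusted p = 0.0569). Of 7 tendon and cartilage markers 1 fell (14.3%, against 3.67% of all genes tested), the tendon factor gene Scx (1.93-fold, adjusted p = 0.0348). That call held only without WT_PBS 1, WT_PBS 3 or KO_PBS 1 (up to 0.117). The 12 skeletal muscle, 11 smooth muscle and pericyte, 7 Schwann cell, 5 B and plasma cell, 5 neutrophil and mast cell, 5 erythroid and 3 T and NK cell markers gave 0 changes, as did the 1 liver marker tested. Of 19 clock genes and 24 immediate early genes, read as signs of sampling time and handling, 0 changed, at medians of -0.04 and 0.16. At an unadjusted limma p under 0.05 there were 1 and 7, against 19.3% of all genes tested. Immediate early genes summed to 515 in KO_PBS 3, against 976 and 1052 in KO_PBS 1 and KO_PBS 2 and 947 to 1105 in KO_secGAA.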

How the data were processed

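Polyadenylated RNA of quadriceps was sequenced as single-end reads of 61 bp with the NEBNext Ultra RNA kit, per the labels' protocols. The build was GRCm38, and the tools listed were edgeR, limma, RSEM, cutadapt and CASAVA, per the submitters' processing notes. Versions, roles and the use of strand are not given in the sources read here. The deposited file gives 13116 genes with a normalized signal (normalized counts). Whole reads were recovered for 100% of its 118044 values (relative tolerance 1e-06): each value is the reads plus 0.5, divided by the library total times a TMM factor and multiplied by 1000000, which edgeR returned to within 9.2e-08. Those factors ran from 0.873 to 1.17 and did not overlap between groups, being highest in KO_PBS and lowest in WT_PBS. The normalized values summed to 855538 to 936932 in KO_PBS, 967848 to 1038670 in KO_secGAA and 1094350 to 1146210 in WT_PBS.

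Genes that reached 1 in 3 or more libraries were tested with limma 3.58.1 (R 4.3.3) on log2(value + 0.5), over all 9 libraries, with group means and a variance trend (6 residual degrees of freedom) and Benjamini-Hochberg adjustment. Folds are on that scale, which understates the change of low genes. Alternatives used edgeR 4.0.16 and DESeq2 1.42.0 on the recovered reads, limma voom, other scalings, pseudocounts and filters, and the 9 fits without 1 library. The tests were tried on simulated reads. Members and the 58 gene lists (1168 genes, 1091 tested) were chosen with earlier results of these data known.

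Genes were named by rule: Gaa; the 12 largest rises and falls among changed genes without overlap and at 5 or more, without predicted genes; the 6 changed genes of highest level in each direction; up to 4 changed members of each list, or 2 of a list with none; and up to 4 genes in each direction apart from both other groups. Names outside this rule are marked in the text. Some genes that the rule picks are not reported here. The KO_PBS libraries also serve as the reference of the knockout against wild type, so the 2 differences are not independent. Coordinates are from GENCODE M21 (GRCm38), matched by identifier for 13104 genes.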

Additional observations from a re-analysis of the deposited data

How the results depend on the processing

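The 481 calls and the 133 of at least 2-fold became 798 and 208 with DESeq2 and 959 and 214 without scaling factors. The 481 became 316 with the knockout libraries alone and 286 without the variance trend. Leaving out 1 library gave 159 to 568 calls and 71 to 155 of at least 2-fold. The lowest came without KO_secGAA 2, and the count of calls was also over 1.5 times lower without KO_PBS 2 (183), KO_PBS 3 (220), KO_secGAA 3 (223), WT_PBS 3 (260), KO_PBS 1 (262) or KO_secGAA 1 (302); these fits have fewer samples. The count of at least 2-fold was 78 without KO_PBS 2. Of the 481 genes, 127 were called without each library in turn (43 rose, 84 fell), 432 with edgeR and 476 with DESeq2. The Gaa difference was -0.11 without scaling factors and -0.03 to 0.14 with 1 library left out (-0.00379 without KO_PBS 2, -0.0253 without KO_PBS 3, -0.000118 without KO_secGAA 3). Of 101 named changed genes 41 were called under all 21 alternatives, and none changed sign. No paired analysis was possible because the labels give the groups no shared replicate numbers. Named calls lost without scaling factors were Casq1, Sh3bgr, Laptm4b, Prkab2, Me1, Smyd1 and Cpeb2, and those lost with quantile normalization were Tpi1, Casq1, Sh3bgr, Prkab2, Lama2, Cyp51 and Smyd1. No alternative on depth was run.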

Other observations

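A few genes in KO_secGAA stood apart from both other groups and are given as values. Ddit4l, an inhibitor of mTORC1, was at 295, 294 and 328 in KO_secGAA, at 137, 171 and 177 in KO_PBS and at 207, 235 and 184 in WT_PBS. Every treated library was above all others (limma adjusted p = 0.00497 against KO_PBS and 0.038 against WT_PBS). Cpeb2, which binds messenger RNA tails, was at 42.7, 36.4 and 38.0 in KO_secGAA, at 22.8, 27.0 and 27.4 in KO_PBS and at 24.4, 22.2 and 22.2 in WT_PBS. Fem1c, of a ubiquitin ligase, was at 20.8, 27.1 and 26.1 against 17.2, 16.1 and 14.6 and 13.3, 15.5 and 14.7. The uncharacterized 4933415F23Rik was at 6.13, 6.25 and 4.72 against 1.92, 2.17 and 1.33 and 0.308, 0.527 and 0.629. On the low side, Tnfrsf21, a death receptor, was at 9.999, 8.70 and 9.26 in KO_secGAA, at 14.1, 14.1 and 21.6 in KO_PBS and at 20.3, 16.6 and 20.02 in WT_PBS. The predicted gene Gm6472 was at 65.6, 68.4 and 71.0 against 186, 154 and 132 and 134, 141 and 151. Mpnd was at 37.7, 39.7 and 42.2 against 52.9, 52.5 and 47.9 and 63.4, 63.2 and 65.8. Cyp51 was at 4.01, 3.80 and 4.504 against 6.82, 6.26 and 6.48 and 7.44, 6.22 and 6.03. Against KO_PBS, Ddit4l and Gm6472 kept their limma calls without any 1 library. In the same 9 fits Cpeb2 lost its call only without KO_secGAA 1 (adjusted p = 0.051), and 4933415F23Rik only without KO_secGAA 2 (0.0585). The calls of Fem1c, Tnfrsf21, Mpnd and Cyp51 each held in at most 3 of these 9 fits (up to 0.138).

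Immunoglobulin and haemoglobin transcripts varied widely within groups. Ighm, the heavy chain of immunoglobulin M, was at 316, 127 and 60.4 in KO_secGAA, at 14.3, 13.0 and 92.3 in KO_PBS and at 402, 141 and 213 in WT_PBS. Igkc, the kappa light chain, was at 190, 230 and 3.64 in KO_secGAA, at 6.30, 4.29 and 76.1 in KO_PBS and at 3.32, 1.16 and 0.481 in WT_PBS. In both genes KO_PBS 3 stood far above the other KO_PBS libraries, and the knockout groups overlapped (limma adjusted p = 0.138 and 0.505). Hba-a2, an alpha globin, was at 31.1, 143 and 49.3 in KO_secGAA and at 38.9, 7.76 and 57.1 in KO_PBS (adjusted p = 0.437).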
